A study of Mus musculus with 48 samples.

Results

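The end of mouse chromosome 12, beyond the VH end of the immunoglobulin heavy chain locus (Igh), was examined as a target of joining to the JH segments. A member is a junction whose joined end (the prey) lies above position 117238672 of build mm9, the end of Ighv1-85, which is the last VH gene of the annotation used. The stretch runs from there to the annotated end of the chromosome, about 4 Mb, and holds 27 annotated genes, none of them an antigen receptor gene in that annotation. Of 301925 distinct junctions in 25 libraries, 1202 were members, listed on 4735 lines. A distinct junction is 1 combination of prey position, prey strand and bait end within a library.

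The libraries were made by LAM-HTGTS, in which a primer at a bait, here JH1 to JH4, is extended by linear amplification and the joint to any partner sequence is read. The series asks how RAG scanning depends on orientation and on cohesin. WT BM (3 libraries) is cultured bone marrow pro-B cells of C57BL/6, RAG1 deficient mice, and INV BM (4 libraries) the same with an Igh inversion, both B220-selected and grown for 4 to 5 days with the cytokines SCF (2 ng/mL) and IL-7 (10 ng/mL). The other 18 libraries, 3 per group, are v-Abl transformed pro-B lines that all carry OsTIR1, Emu-Bcl2 and RAG1 deficiency and were held in arrest for 4 days by 3 uM of the Abl kinase inhibitor STI-571. They are a parental line (untreated), a Wapl-degron line (untreated, or IAA/Dox), a Wapl-degron line with Single Igh (untreated, or IAA/Dox), and a derivative of the latter, titled INV (IAA/Dox). IAA/Dox stands for 150 uM IAA, an auxin, with 2 mg/mL Dox for 3 days, added after 1 day of STI-571. OsTIR1 is the plant receptor through which auxin marks a degron-tagged protein for destruction. The labels do not give the ends of the inversion, the Wapl level, or whether replicates are separate mice, cultures or clones, so p-values measure the spread between these libraries, which may be technical. The lines were infected with a RAG1/2 retrovirus, per the labels. For bone marrow the labels give RAG1 deficiency and no source of RAG, although those libraries hold V(D)J joints. The inversion of the single-Igh INV line stands in its title and not in its genotype label.

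RAG cuts next to recombination signal sequences (RSSs), made of a heptamer that begins with CAC, a spacer of either of 2 lengths, and a nonamer. In the scanning model, RAG sits at the JH end of the locus while cohesin draws chromatin past it, and RSSs that face the JH segments are cut and joined. Wapl takes cohesin off chromatin. At VH genes in the reference, the heptamer lies on the side of the gene nearer to JH, so a VH coding joint has its prey on the plus strand, running away from JH. A plus-strand member therefore has any RSS facing JH on the uninverted chromosome, and strand below always means strand of the reference.

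The sites that carry the results are shown here across the joint. Each line reads 5′ to 3′ out of the prey (30 bases) into the 45 reference bases beyond the joint, and capitals mark the first heptamer that begins with CAC within 10 bases of the most used joint. Coordinates are mm9. The first is the site that WT BM and the treated uninverted lines used most, the next 3 are the most used sites of INV BM, and the last is the most used minus-strand site, which has no such heptamer.
Ighv1-86 site, chr12:117247825-117247899, minus strand: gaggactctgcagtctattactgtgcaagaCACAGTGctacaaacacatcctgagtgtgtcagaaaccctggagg
Site at 118596804, chr12:118596759-118596833, minus strand: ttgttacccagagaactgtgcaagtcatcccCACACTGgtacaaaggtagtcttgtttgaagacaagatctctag
Site at 118586131, chr12:118586086-118586160, minus strand: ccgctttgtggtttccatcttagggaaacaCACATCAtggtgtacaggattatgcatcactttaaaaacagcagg
Site at 117294657, chr12:117294612-117294686, minus strand: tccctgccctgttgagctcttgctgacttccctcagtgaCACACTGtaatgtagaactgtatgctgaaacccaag
C-run site at 118495112, chr12:118495083-118495157, plus strand: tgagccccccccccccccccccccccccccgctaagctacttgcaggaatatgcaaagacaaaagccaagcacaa

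Libraries held 1977 to 27675 distinct junctions. Their reads came from 8 sequencing runs, numbered here from read names, and runs differed in junctions outside chromosome 12. The libraries of run 1 (WT BM replicate 1 and INV BM replicate 1) held 132 and 100 distinct junctions on other chromosomes, against 752 to 2696 in the other BM libraries. The assay has no molecular identifiers, so intervals cover counting error only.

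Replicates of the treated lines were not independent. Joints with an insert of at least 10 bases were compared between libraries by prey position, prey strand, bait end and inserted bases. Single-Igh INV replicates 2 and 3 shared 133 of the 186 such VH joints of the smaller library (71.5%). Replicates 1 and 3 of the treated single-Igh line shared 818 of 1278 (64.0%). The 3 libraries of the treated Wapl-degron line shared 33.2% to 51.1%. The other pairs of line libraries within a group shared 2.26% to 8.36%, and pairs from different groups at most 9.89%. INV BM replicates 2 to 4, all from run 4, shared 13.7% to 14.7% of VH joints but 2 joints per pair beyond the VH end, about 1%, and INV BM replicate 1 at most 0.0319% with any of them. INV BM libraries are counted one by one below, so the SD and p-values may not rest on 4 independent libraries. Beyond the VH end, single-Igh INV replicates 2 and 3 had 29 of 43 members in common by position, strand and bait end, and single-Igh replicates 1 and 3 had 6 of 10. Libraries that share over 25% of VH joints are called linked here, whatever made them alike, which the labels do not say. Counting linked libraries as 1 leaves 1 treated Wapl-degron library, 2 treated single-Igh and 2 single-Igh INV libraries, and exact permutation then cannot go below p = 0.5, 0.2 and 0.333 in their comparisons. Every n = 3 given below for a treated line counts linked libraries one by one, so its SD and p-value do not rest on 3 independent libraries. For treated lines, tests of member and minus-strand shares are also given with linked libraries averaged first, a choice made after the data were seen. Densities relative to other chromosomes, CAC shares and values with sites left out are given only with linked libraries counted separately. Their p-values take no account of the links.

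In inverted bone marrow cells, joining reached far past the locus, and in uninverted bone marrow cells most joints past the locus lay at 1 VH-like site near its end. INV BM libraries held 329, 204, 203 and 258 members, and WT BM libraries 23, 11 and 6. Per 100000 distinct junctions WT BM had 70.1 ± 21.1 (SD, n = 3) and INV BM 1488 ± 217 (SD, n = 4), which is 21.2 times as many. Every INV BM library, lowest at 1330.0, lay above every WT BM library, highest at 83.1. The two-sided exact permutation test gave p = 0.0571, the smallest that 4 against 3 libraries allow, and 0.12 after Benjamini-Hochberg adjustment over the 12 such tests made. The sizes depend on what is counted. With every line counted the means were 206 and 10.5 per 100000 lines, a ratio of 19.7. With junctions distinct by prey position and strand they were 7139 and 218, a ratio of 32.8, and the groups overlapped in neither. With the first 100 kb beyond the VH end left out, which holds the Ighv1-86 site, they were 1353 and 6.21 per 100000 distinct junctions. The groups also stood apart within runs. In run 1, INV BM replicate 1 stood at 1808 (95% exact interval 1620 to 2013) and WT BM replicate 1 at 83.1 (52.7 to 125). In run 4, 3 INV BM libraries averaged 1382 and 2 WT BM libraries 63.6.

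**Figure D1:**
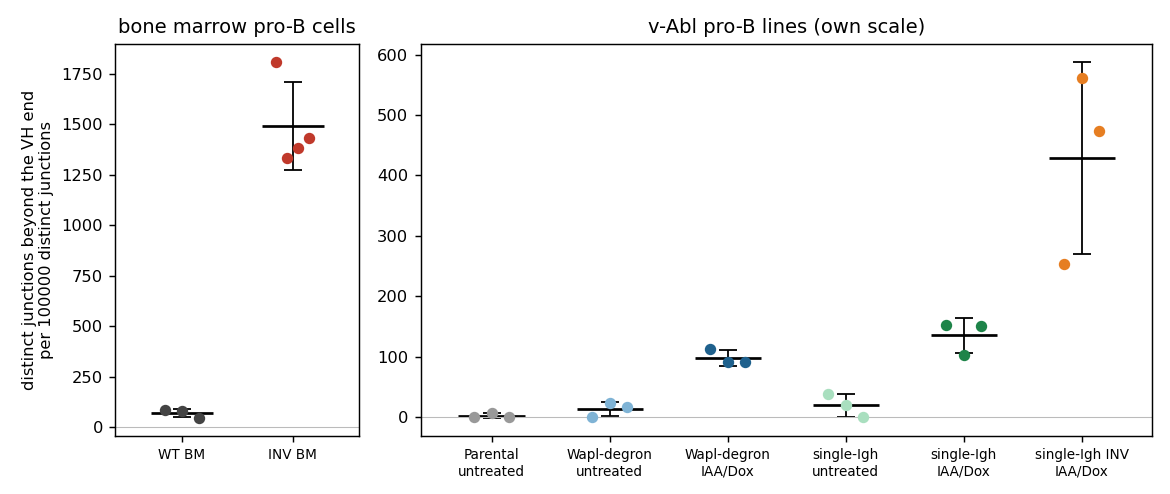
Distinct junctions beyond the VH end per 100000 distinct junctions of the library, for BM libraries (left) and v-Abl lines (right, on another scale); points are libraries, bars the group mean and SD. INV BM stands at 1330.0 to 1808 and WT BM at 45.8 to 83.1, and in the lines single-Igh INV with IAA/Dox is highest, at 253 to 561.

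The Ighv1-86 site was picked out for its use in WT BM, so leaving it out lowers WT BM by construction. Without it WT BM had 1, 2 and 1 members in its 3 libraries, INV BM 329, 203, 201 and 256. In the VH region beyond its second gene, WT BM held 29498 distinct plus-strand junctions and INV BM 4932, so the members outside that site on the plus strand (3 in WT BM and 939 in INV BM) did not follow the number of VH joints. The density of junctions beyond the VH end was also set against the density on other chromosomes of the same library. The ratio was 2074, 146, 170 and 116 in INV BM, and 110, 2.57 and 2.52 in WT BM (p = 0.0571 and adjusted p = 0.12 by exact permutation). The highest value of each group is the run 1 library, with few junctions on other chromosomes. Within run 4 the ratios averaged 144 and 2.55. Set against the centromeric part of chromosome 12, or with the most used INV BM site left out, the ratio of WT BM replicate 1 fell among those of INV BM (exact permutation p = 0.171 in both), and that library had 3 junctions on the centromeric part.

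Members in INV BM were spread over the whole stretch. The quartiles of their distance from the VH end were 0.640, 1.358 and 1.76 Mb, and the farthest lay 3.996 Mb out, next to the chromosome end. Of 994 members, 677 (68.1%) were over 1 Mb and 189 (19%) over 2 Mb away. By library, 64.1%, 69.6%, 71.9% and 69.0% were over 1 Mb away. Per Mb and per 100000 distinct junctions, the density was 494 ± 80.9 (SD, n = 4) at 100 to 500 kb, 276 ± 143 at 500 kb to 1 Mb, 269 ± 83.5 at 1.5 to 2 Mb and 85.4 ± 56.5 in the last 0.519 Mb. The interval from 1 to 1.5 Mb stood above its neighbours, at 1201 ± 230, and 264 of its 398 members were at the single site at 118596804. Densities between 2 Mb and the last interval are not given here. There the 100 kb holding sites at 2.854 and 2.862 Mb had 43 plus-strand members, against 4 and 11 in the 100 kb either side. In WT BM the intervals past 500 kb held 1 member in all, at the C-run site.

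Windows of 500 kb were compared over the whole genome with limma voom, with junctions outside chromosome 12 as the library size and the Igh region left out. Of 200 windows tested between INV BM and WT BM, 5 passed a Benjamini-Hochberg adjusted p under 0.05 (2.5%), and all 5 lay among the 8 windows beyond the VH end. These were the 5 adjoining windows from 0.5 to 3 Mb. Windows needed at least 10 junctions, which these reached only through INV BM, since WT BM had 1 member past 500 kb, so their fold changes stand over counts near 0, depend on the prior count of 0.5 and are no bounds. As they entered the test only through the group where they are high, their calls and p-values describe them and are no support beyond the shares above. Their log2 fold changes were 8.64 (SE 1.52), 8.47 (1.103), 8.22 (1.29), 6.095 (1.18) and 8.26 (1.33), with limma adjusted p of 0.00436 to 0.0194. The window nearest the locus, which holds the Ighv1-86 site, changed by 2.27 on the log2 scale (SE 1.599) and was not called (limma adjusted p = 0.798), and the last 2 had 5.34 and 4.56 (limma adjusted p = 0.0582 and 0.150). The count depended on the settings and on 1 library. It fell to 1 with limma trend in place of voom and to 3 with windows of 1 Mb, and rose to 8 without INV BM replicate 1, a library of run 1, as it did with the run or the replicate number as a term or with all windows of at least 1 junction kept. Taken as 1 window the whole stretch had the highest log2 fold change of 199 windows of its length, 4.29 (SE 1.74), and was not called (limma adjusted p = 0.906), nor was any other (0 of 199, against 6 at an unadjusted p under 0.05). Without INV BM replicate 1 it was called (log2 fold change 5.29, adjusted p = 5.8e-06), as it was without WT BM replicate 1 (7.03, adjusted p = 0.000899), with the run as a term (5.28, adjusted p = 6.8e-08) and with the replicate number as a term (5.33, adjusted p = 0.00847). For all these other settings the shares called over the genome are not given here. Whether calls made under them are particular to this stretch therefore cannot be told.

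**Figure D2:**
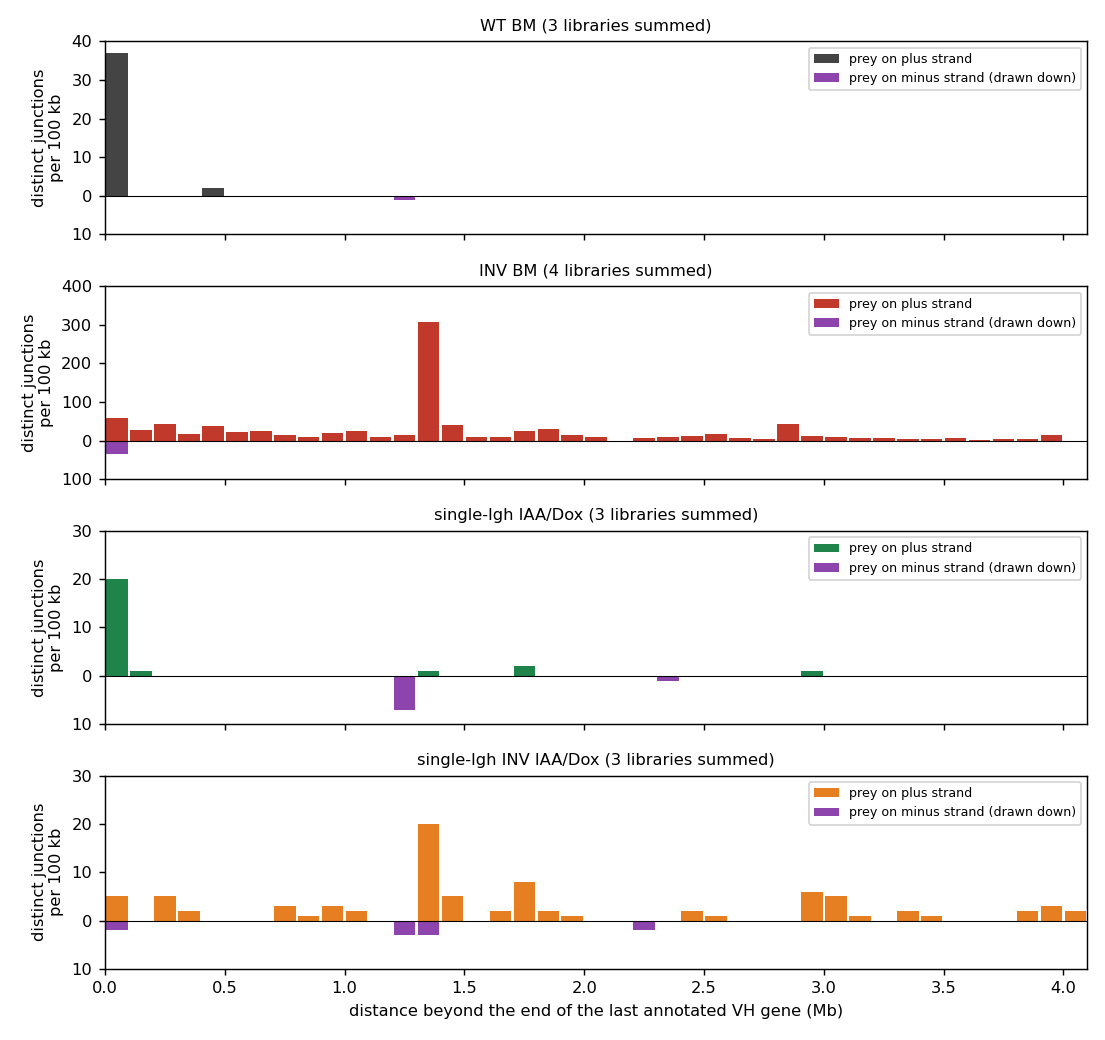
Distinct junctions per 100 kb against distance beyond the last annotated VH gene, libraries summed; bars above the line are plus-strand prey and purple bars below it minus-strand prey, on a scale of its own for each group. WT BM and single-Igh IAA/Dox members gather in the first bar, while INV BM and single-Igh INV members run to the chromosome end with a peak near 1.358 Mb.

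The Ighv1-86 site is a VH-like sequence 9.2 kb past Ighv1-85. Its joints cluster at 117247867 to 117247891 on the plus strand, 32.7 kb before Zfp386, the first annotated gene beyond the locus, which encodes a zinc finger protein. The annotation used has no gene there. RefSeq's gene table of a later assembly, used only for gene order, lists the V segment Ighv1-86 between Ighv1-85 and Zfp386, and the sequence before the joint aligned to the Ighv1-85 coding end with 259 of 297 aligned columns identical (87.2%). The joint printed above ends in the bases that code for the end of a VH exon and is followed at once by CACAGTG, the heptamer with all 7 consensus bases.

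WT BM used this site in 22, 9 and 5 distinct junctions, 36 of its 40 members. The Wapl-degron line with IAA/Dox used it in 3, 4 and 5, 12 of 28 members, and the single-Igh line with IAA/Dox in 7, 6 and 7, 20 of 33, both summed over linked libraries. None of the 9 untreated line libraries had a junction there. INV BM had 0, 1, 2 and 2, or 5 of 994, and the single-Igh INV libraries none. Per 100000 distinct junctions the site took 61.4 ± 21.2 (SD, n = 3) in WT BM, 7.81 ± 5.98 (n = 4) in INV BM, 41.8 ± 6.03 (n = 3) in the treated Wapl-degron line and 84.6 ± 29.5 (n = 3) in the treated single-Igh line. All WT BM libraries lay above all INV BM libraries, and the 2 treated uninverted lines did not overlap with any untreated line. In the untreated lines a count of 0 allows at most 17.2 to 98.8 per 100000 by library, so in the shallowest of them the levels of the treated lines would not have been detectable. The site was picked out for its use in WT BM, and these values carry no test.

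**Figure D3:**
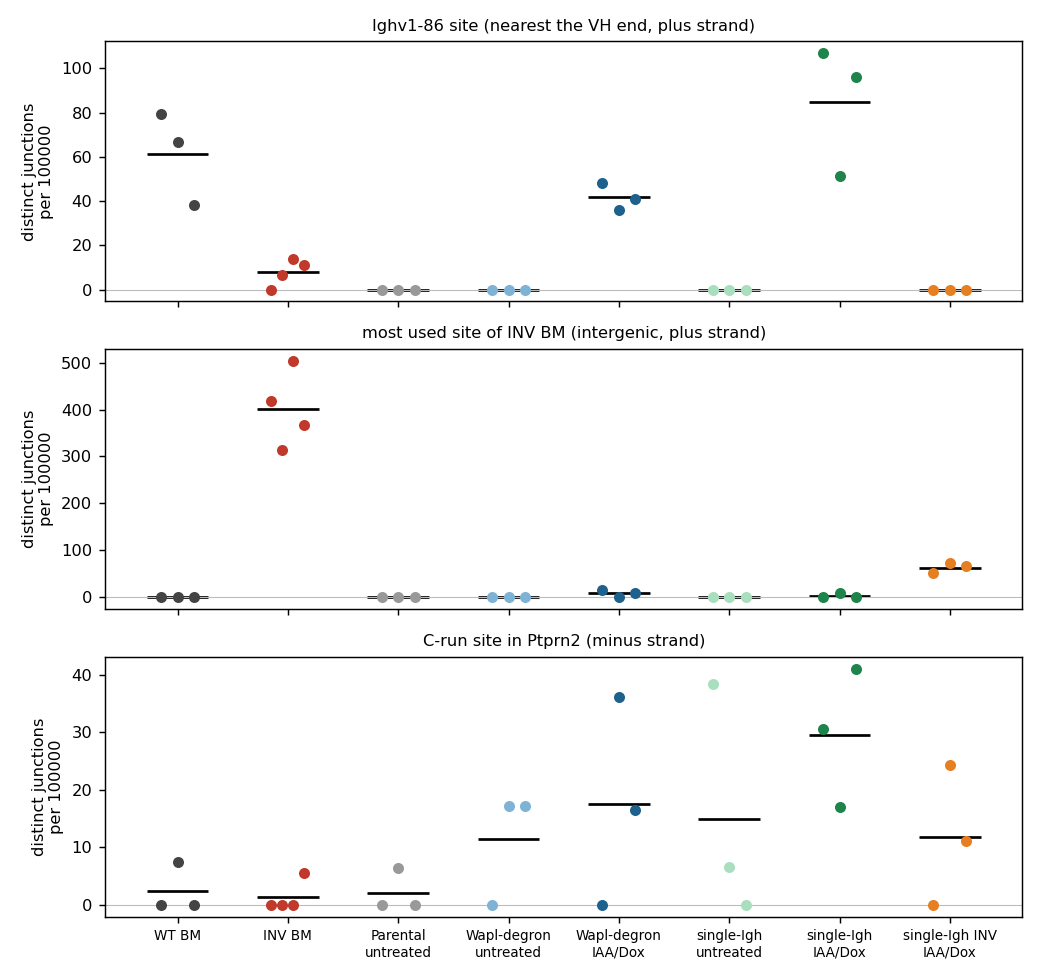
Distinct junctions per 100000 at 3 sites beyond the VH end, by group; points are libraries and bars group means, with a scale of its own for each site. The Ighv1-86 site is used in WT BM and both treated uninverted lines, the most used INV BM site mainly in inverted groups, at 313 to 504 in INV BM, and the C-run site at low levels across groups.

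The most used site of INV BM lay 1.358 Mb beyond the VH end, at 118596800 to 118596838 on the plus strand. It is intergenic, 80.2 kb past the end of Ptprn2, which encodes a phosphatase-like protein of secretory granules, and before Rapgef5, a Rap guanine nucleotide exchange factor. INV BM libraries had 76, 48, 74 and 66 distinct junctions there, 264 of 994 (26.6%), and the 3 WT BM libraries had none. Single-Igh INV libraries had 1, 6 and 6, the last 2 of them linked. The treated Wapl-degron line had 1, 0 and 1 and the treated single-Igh line 0, 1 and 0, and the 2 Wapl-degron libraries that hold the site are linked. Per 100000 distinct junctions this was 400.3 ± 81.1 (SD, n = 4) in INV BM and 63.3 ± 11.6 (n = 3) in single-Igh INV. Its sequence has no VH-like coding end annotated, but 1 base beyond the most used joint it reads CACACTG, which shares 6 of 7 bases with the consensus heptamer. Where a nonamer would follow, 4 of its 9 consensus bases are matched at the longer spacer and 1 at the shorter. Without this site INV BM still held 253, 156, 129 and 192 members, 1088 ± 217 per 100000.

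The next sites of INV BM were far smaller. The site at 118586131, 10.7 kb nearer the locus, had 6, 3, 3 and 5 distinct junctions in INV BM and 0, 3 and 2 in single-Igh INV, with CACATCA right at the joint. The site at 117294657, in an intron of Zfp386, had 7, 1, 4 and 2 in INV BM and none in any other group. In single-Igh INV a site at 117273402, 34.7 kb out, had 0, 1 and 2 junctions, the last 2 libraries linked, and none of them shared with INV BM. Other sites, such as 118200547, had as many junctions there, and the one nearest the VH end was taken. The treated single-Igh line had 1, 0 and 1 at 119003610, 8.16 kb past Rapgef5, and the 2 libraries that hold it are linked.

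INV BM members fell on 389 sites (clusters joined over gaps of up to 20 bp), of which 268 had 1 junction, 97 were in at least 2 libraries and 19 in all 4. Besides the most used one, those 19 had 4 to 17 junctions each, from 1.498 kb to 2.86 Mb out. A CAC began within 10 bases of the main joint at 18 of the 19, and 10 of the 19 had at least 6 of 7 heptamer bases. Single-Igh INV had 64 members when those found in more than 1 library are counted once. They fell on 46 sites, of which 25 were also used in INV BM, 54.3% of the single-Igh INV sites and 6.43% of the INV BM sites. The 25 include the C-run site, which every group used, and 12 of them were in 1 INV BM library only. How many would be shared by chance was not computed.

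Most joined positions of INV BM had the first 3 letters of a heptamer within a few bases beyond the joint. Of 575 plus-strand positions joined in INV BM (the Ighv1-86 site left out, each position counted once), 139 (24.2%) had CAC as the next 3 bases beyond the joint, reading away from the prey, and 531 (92.3%) had one starting within the next 9 bases. Over all positions beyond the VH end, CAC stands at 1.57% and GTG, the same triplet on the other strand, at 1.68%. GTG, a CAC that points the other way, followed the joint at 0.348% of the INV BM positions and began within 9 bases at 145 (25.2%). A window of the same length taken every 7 bases along the stretch held CAC in 13.2% of cases. Single-Igh INV had fewer plus-strand positions, with CAC next to the joint at 16 of 49 (32.7%) and within 9 bases at 41 (83.7%). Among the INV BM positions with CAC at the joint, the next 4 bases of the consensus (A, G, T and G) were each present in 73.4%, 45.3%, 59.0% and 46.8% of the 139, against 45.1%, 22.4%, 25.5% and 21.3% of all 63014 CAC triplets beyond the VH end on the plus reading. The full CACAGTG stood at 21 of the 139 (15.1%) and at 0.892% of all such triplets. Those triplets were taken on the strand opposite to the one read at these joints. Positions near each other share sequence and several joints of 1 site use 1 heptamer, so these shares are given without a test.

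**Figure D4:**
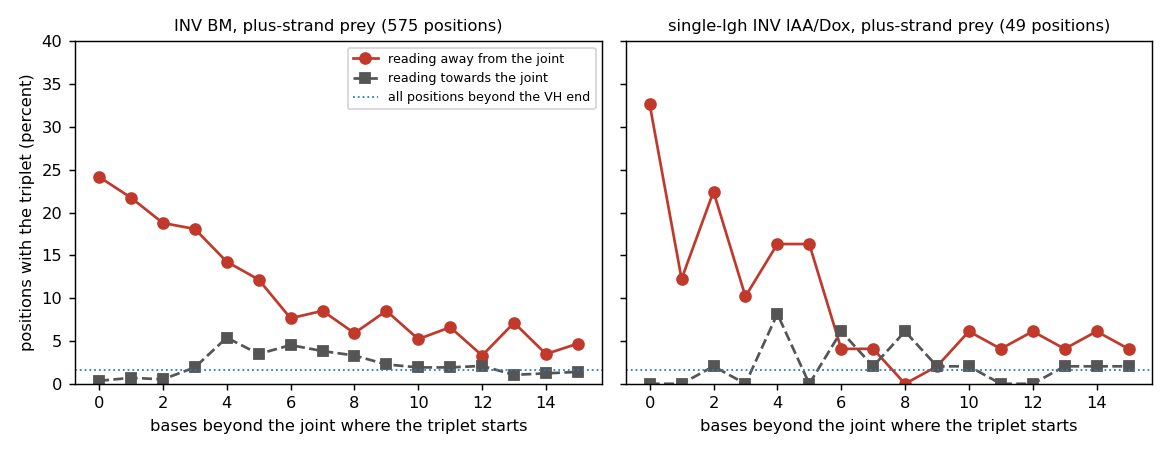
Share of plus-strand member positions with the triplet CAC at each distance beyond the joint, reading away from it (red) or towards it (grey), for INV BM (left, 575 positions) and single-Igh INV (right, 49 positions). The dotted line is the share of CAC over all positions beyond the VH end on the plus strand of the reference, 1.57%. On the minus strand, where these joints are read outward, it is 1.68%. The outward triplet is most common right at the joint, 24.2% in INV BM and 32.7% in single-Igh INV, and declines over the next bases.

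As a share of members rather than positions, CAC at the joint took 34.7% ± 8.19 (SD, n = 3) in WT BM, where most members sit at the Ighv1-86 site, and 23.7% ± 1.28 (n = 4) in INV BM (p = 0.0571 and adjusted p = 0.12 by exact permutation). With each position counted once that difference turned, to 12.9 percentage points higher in INV BM (exact permutation p = 0.133). WT BM replicate 3 dropped out there, below the minimum of 5, and this p is the smallest that the libraries left allow. In the treated single-Igh lines CAC at the joint took 33.5% ± 6.096 with the inversion and 23.6% ± 16.6 otherwise (n = 3 each), with p = 0.5 before and after adjustment by exact permutation, a difference within the spread between libraries.

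In bone marrow nearly all members were on the plus strand, facing JH on the uninverted chromosome. In INV BM 944 of 994 (95%) were plus-strand, and the minus-strand share by library was 5.78%, 4.41%, 3.45% and 5.81%, against 0%, 9.09% and 0% in WT BM (1 junction in all, exact permutation p = 0.4, adjusted p = 0.436). The minus-strand members of INV BM were not spread evenly. In the first 10 kb beyond the VH end INV BM had 15, 7, 4 and 7 minus-strand and 0, 1, 2 and 2 plus-strand junctions. Farther out it had 4, 2, 3 and 8 minus-strand and 310, 194, 194 and 241 plus-strand junctions, and from 20 to 100 kb every one of its 49 members was plus-strand. WT BM had 37 plus-strand and 0 minus-strand junctions in the first 10 kb. Inside the VH region beyond its second gene, the minus strand of INV BM held 216 ± 58.1 distinct junctions per Mb and library (n = 4) and 3.11 ± 1.37 beyond the VH end. For WT BM (n = 3) these were 31.7 ± 24.5 and 0.0829 ± 0.144. The plus strand of the same VH stretch held 509 ± 166 in INV BM and 4061 ± 2879 in WT BM. In the 10 kb just inside the edge that defines the members, INV BM had 134 plus-strand and 26 minus-strand junctions, and in the 10 kb just outside it 5 and 33. The labels do not give the distal end of the inversion, so whether these first kilobases lie inside the inverted segment or beyond it cannot be told apart. In the lines, plus-strand members were 84 of 94 in single-Igh INV, 22 of 28 and 25 of 33 in the treated Wapl-degron and single-Igh lines, and 1 of 7, 1 of 5 and 0 of 1 in the untreated Wapl-degron, single-Igh and parental lines, where the C-run site holds most minus-strand members. Of the 38 minus-strand positions joined in INV BM, 27 (71.1%) had CAC within the next 9 bases, and of the 6 in single-Igh INV 1 had (16.7%).

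In bone marrow, joints beyond the VH end held D segment stretches about as often as VH joints. V-to-DJ joining leaves the D segment, with added bases, between the JH bait and the prey, whereas D-to-JH joining leaves short inserts. In INV BM the insert of plus-strand members had a median of 17 bases, against 18 at VH genes beyond the second and 4 at D segments. An exact stretch of 8 bases of an annotated D segment in its JH-joined orientation stood in 683 of 939 of them (72.7%, 71.3% to 74.7% by library). The share was 69.1% (67.7% to 71.3%) at plus-strand VH joints and 9.15% (8.04% to 11.1%) at D joints of the same libraries. The reversed D stretches, a control for chance matches and inverted D use, stood in 13.0% of the plus-strand members and 12.8% of the VH joints. The minus-strand members had a median insert of 17 bases, with a D stretch in 35 of 50 (70%). At the Ighv1-86 site in WT BM the median insert was 17 bases and 25 of 36 (69.4%) had a D stretch. Single-Igh INV had shorter inserts, with a median of 8 bases and a D stretch in 42 of 84 plus-strand members (50%, 47.4% to 80% by library), against 11 bases and 71.3% at its plus-strand VH joints. The use of JH segments by INV BM plus-strand members, 13.5% JH1, 43.9% JH2, 20.1% JH3 and 22.4% JH4, was near that of its VH joints, at 13.8%, 41.4%, 19.6% and 25%.

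**Figure D5:**
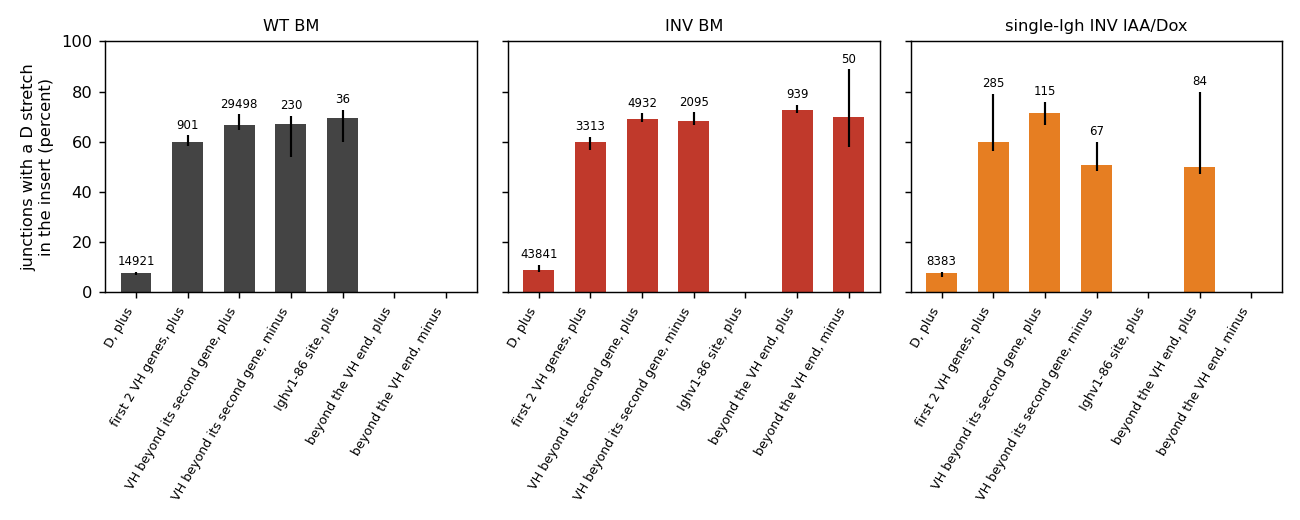
Percent of distinct junctions whose insert between bait and prey holds an exact 8-base stretch of a D segment, by region and prey strand, in WT BM, INV BM and single-Igh INV; black lines span the libraries with at least 5 such junctions, numbers above the bars are junctions, and sets under 20 junctions are not drawn. Joints beyond the VH end stand at 72.7% in INV BM, near VH joints at 69.1% and far above D joints at 9.15%.

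Pooled over their bodies, coding genes held about the share of joined positions in INV BM that their length gives, but single genes differed widely in members per length. Of 616 positions joined in INV BM 317 (51.5%) lay in bodies of protein-coding genes, which cover 50.5% of the stretch, and 17 (2.76%) within 5 kb of a coding gene's start, where 4.13% of it lies. For single-Igh INV these were 22 of 55 (40%) and 0. These shares count each position once. By members, counted gene by gene, the 15 genes listed next held 370 of 994 in INV BM and 31 of 94 in single-Igh INV. The most used site, with 264 members of INV BM, is intergenic. Of a list of 15 of the 17 annotated coding genes of the stretch, 14 held a member of INV BM, each in at least 2 libraries, and 9 a member of single-Igh INV. WT BM had 2 of the 15, the Wapl-degron line 1 untreated and 2 treated, and the single-Igh line 2 untreated and 3 treated. Ptprn2, the longest at 792 kb (chr12:117724193-118516640), held 138 members of INV BM, or 17.4 per 100 kb. Zfp386 (18.5 kb) held 28, or 151 per 100 kb, and the noncoding RNA gene Gm17626 inside its span held 11 of those. Vipr2, a receptor of vasoactive intestinal peptide, held 20, Wdr60, a dynein subunit gene, 7, and the U6 snRNA gene between them none. Esyt2, a tether of the endoplasmic reticulum to the plasma membrane, held 29, and Ncapg2, a condensin II subunit gene, 26. Farther out Rapgef5 held 28, Cdca7l, which encodes a Myc-binding protein, 18, Dnahc11, an axonemal dynein gene, 28, and Abcb5, a transporter gene, 25, and Tmem196, the last gene before the chromosome end, 13. Macc1 was the listed gene with no INV BM member. The 2 coding genes not on the list were Gm11027, with none either, and D430020J02Rik, with 5 in INV BM, which overlaps Ncapg2. In the treated single-Igh INV line Ptprn2 held 12, Abcb5 and Tmem196 5 each, Rapgef5 and Cdca7l 2 each and Dnahc11 1.

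In the v-Abl lines, few joints passed the locus end without treatment, and IAA/Dox libraries held more of them. The parental line had 0, 1 and 0 members, the untreated Wapl-degron line 0, 4 and 3, and the untreated single-Igh line 2, 3 and 0. With IAA/Dox the Wapl-degron line had 7, 10 and 11 and the single-Igh line 10, 12 and 11. Per 100000 distinct junctions this was 97.6 ± 12.7 (SD, n = 3) against 13.4 ± 12 (n = 3) in the Wapl-degron line, and 135 ± 28.5 against 19.5 ± 19.2 (n = 3 each) in the single-Igh line. In both lines all treated libraries lay above all untreated ones (exact permutation p = 0.1, the smallest that 3 against 3 allow, adjusted p = 0.12). With linked libraries counted as 1, the Wapl-degron line stood at 97.6 (1 library) against 13.4 ± 12 (exact permutation p = 0.5). The single-Igh line then stood at 127 ± 34.9 (n = 2) against 19.5 ± 19.2 (exact permutation p = 0.2), and neither pair of groups overlapped. The ratio of treated to untreated, 7.28 and 6.94 in the Wapl-degron and single-Igh lines, was 34.8 and 33.8 with all lines counted and 8.12 and 3.55 by prey position and strand. With the first 100 kb left out it was 3.77 and 2.93. Within run 7, 1 treated Wapl-degron library stood at 90.3 and the 3 untreated ones averaged 13.4. Within run 8, 2 treated single-Igh libraries averaged 126 and 1 untreated library stood at 20.03. Relative to the density on other chromosomes, the treated Wapl-degron line stood at 7.73 ± 10.4 and the untreated one at 0.298 ± 0.268, and the single-Igh line at 2.4 ± 0.184 treated and 0.545 ± 0.6 untreated (n = 3 each, exact permutation p = 0.1 in both). The Wapl-degron difference, 7.43, was 1.403 without replicate 1 of the treated line, the library of run 3. Without the Ighv1-86 site the single-Igh difference was 0.375, and the libraries overlapped (exact permutation p = 0.5).

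Most of these members sat at just 2 sites. The Ighv1-86 site held 32 of the 61 treated members, as given above, and none of the 13 untreated ones. The C-run site on the minus strand, in an intron of Ptprn2, held 6 of 28 members of the treated Wapl-degron line and 7 of 33 of the treated single-Igh line, but also 6 of 7, 3 of 5 and 1 of 1 in the untreated Wapl-degron, single-Igh and parental lines. Its prey ends in a run of 26 cytosines and no CAC lies within 10 bases beyond it. WT BM and INV BM had 1 junction each there and single-Igh INV 3. Whether the C run bears on how these reads were mapped was not tested.

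Without these 2 sites, a choice made after the data were seen, 10 members were left in the treated Wapl-degron line (4, 2 and 4 by library) and 1 in the untreated one. The treated single-Igh line kept 6 (1, 4 and 1) and the untreated one 2. The 3 treated Wapl-degron libraries are linked, and replicates 1 and 3 each hold a member at 118596804. In the treated single-Igh line, replicates 1 and 3 are linked, and their single members lie at the same position, 119003610. Per 100000 the Wapl-degron values were 38.3 ± 23.5 and 1.92 ± 3.32, and the single-Igh values 21.0 ± 11.3 and 4.45 ± 7.71 (n = 3 each). The C-run site held 6 of 7 and 3 of 5 members of the untreated lines, so leaving it out lowers them by construction, and no test is given. All 10 of the Wapl-degron line and 5 of the 6 of the single-Igh line were plus-strand, at 0.0212 to 3.53 Mb and 0.117 to 2.93 Mb beyond the VH end, and 7 and 4 had a CAC within 10 bases. Uninverted WT BM kept 3 such members, at 0.00143, 0.41 and 0.465 Mb. Over both treated lines, CAC within 9 bases stood at 9 of 13 plus-strand positions outside the Ighv1-86 site, and over the untreated lines, both strands, at 1 of 7. The 2 sets are unlike, since the untreated positions include the C-run site, which has no such CAC. Outside it, CAC lay within 10 bases at 0 of 1 untreated Wapl-degron and 1 of 2 untreated single-Igh members.

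In genome-wide windows, limma voom called none of the 2 tested windows beyond the VH end for the Wapl-degron line, where 1 of 356 windows was called over the genome (0.281%). The first of them had a log2 fold change of 3.54 (SE 1.072), an unadjusted p of 0.00274 and a limma adjusted p of 0.195. At an unadjusted p under 0.05, 25 of the 356 windows passed, 7 of them higher (1.97%). For the single-Igh line it called 1 of 2, the window with the Ighv1-86 site, at 2.499 on the log2 scale (SE 0.682, limma adjusted p = 0.0493). Over the genome 5 of 317 windows were called (1.58%), and this was the 1 called higher (0.315%). That window, like the first of the Wapl-degron line, reached 10 junctions only through the treated libraries, so these p-values and calls are descriptions. The single-Igh call was lost when any 1 of the 6 libraries was left out, and so with 1 library per linked set. Taken as 1 window, the stretch had the highest log2 fold change of 278 windows in the Wapl-degron line (2.19, SE 0.688) and of 269 in the single-Igh line (1.94, SE 0.624). It was called in neither (limma adjusted p = 0.487 and 0.128), where 0.36% and 0.743% of windows of that length were called. By distinct junctions the untreated lines held 7 and 5 members, so the stretch reached 10 only through the treated libraries. Its rank, p-values and calls in these 2 lines therefore describe it and are no support beyond the shares. With the replicate number as a term the stretch was called in the Wapl-degron line (2.88, limma adjusted p = 0.00929), as was 1 of its 500 kb windows. With all lines counted it was called in the single-Igh line (2.42, limma adjusted p = 0.0233). With 1 library per linked set it was called in neither (2.32 and 1.89, limma adjusted p = 0.132 and 0.542). For these other settings the shares called over the genome are not given here.

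The inverted single-Igh line, treated with IAA/Dox, joined beyond the VH end more often than the uninverted line under the same treatment. Its libraries had 5, 46 and 43 members, or 253 (95% exact interval 82.2 to 589), 561 (411 to 748) and 474 (343 to 638) per 100000 distinct junctions. The mean was 429 ± 159 (SD, n = 3) against 135 ± 28.5 (n = 3), a ratio of 3.18, and the groups did not overlap (p = 0.1 and adjusted p = 0.12 by exact permutation). With linked libraries counted as 1 the means were 385 ± 187 and 127 ± 34.9 (n = 2 each), and the groups still did not overlap (exact permutation p = 0.333). The ratio was 2.32 with all lines counted and 4.64 by prey position and strand. With the first 100 kb left out it was 7.96. Within run 6, 2 inverted libraries averaged 407 and 1 uninverted library stood at 153. Relative to the density on other chromosomes the inverted line stood at 6.05 ± 2.71 (n = 3), and set against centromeric chromosome 12 instead, its libraries overlapped with the uninverted ones (exact permutation p = 0.4). Its VH joints were few: 115 distinct plus-strand junctions in the VH region beyond its second gene, against 6523 in the uninverted line, and 84 beyond the VH end against 25. The plus-strand members of the inverted line included none at the Ighv1-86 site, where the uninverted line had 20.

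Members of the inverted line also reached the chromosome end. The quartiles of their distance were 1.256, 1.358 and 2.498 Mb, the outer ones farther out than in INV BM, and both medians lie at the most used site. Of its members 73 of 94 (77.7%) were over 1 Mb away and 27 (28.7%) over 2 Mb, and the farthest lay 4.01 Mb out. The lower quartile lies at the C-run site. Members that the linked replicates 2 and 3 share count in each library here, and 64 remain with each counted once. These differences in distance were not tested. The minus-strand share was 7.5% ± 6.51 with the inversion and 24.1% ± 3.72 in the uninverted line (n = 3 each, p = 0.1 and adjusted p = 0.12 by exact permutation), and of the 8 minus-strand members of the uninverted line 7 were at the C-run site. With linked libraries counted as 1 these shares were 5.62% ± 7.95 and 24.3% ± 0.964 (n = 2 each, exact permutation p = 0.333). As 1 window, the stretch was called higher in the inverted line (log2 fold change 1.396, SE 0.322, limma adjusted p = 0.0182), where 2 of 307 windows of that length were called (0.651%), 1 of them higher (0.326%), and 15 had a higher log2 fold change. That call was lost without single-Igh IAA/Dox replicate 1 (limma adjusted p = 0.0692) or 2 (0.105) or single-Igh INV replicate 2 (0.221), and with 1 library per linked set (1.22, limma adjusted p = 0.116). It was also lost with the replicate number as a term (0.251), the run as a term (0.824) and limma trend (0.693). In 500 kb windows 0 of 3 tested windows beyond the VH end passed, with 0 called of 337 over the genome, by limma voom, against 7 called with all lines counted and 2 with windows of 1 Mb. For those other settings the share called over the genome is not given here. The windows from 1 to 2 Mb had log2 fold changes of 1.85 and 2.08 (limma adjusted p = 0.170 and 0.473), and the first, with the Ighv1-86 site, had -0.66. At an unadjusted p under 0.05, 27 of the 337 windows passed (8.01%), 7 of them higher (2.08%), and these 7 include the 2 windows from 1 to 2 Mb. Those 2 windows reached 10 junctions only through the inverted libraries, 2 of which are linked, so their passes describe them and are no support.

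The authors also deposited shorter lists of off-target junctions for 13 of the libraries, and the labels do not say how these were chosen. In INV BM 929 of 994 members (93.5%) were in these lists, among them 252 of the 264 at the most used site. None of the 53 distinct junctions at the Ighv1-86 site in WT BM, INV BM and the treated Wapl-degron line was in them, and all 4 other WT BM members and all 16 others of the treated Wapl-degron line were.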

How the data were processed

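The deposited lists hold 1 junction per line. The values used are other than counts: positions, strands and alignment ends, per the file headers, with no normalization. Alignment was to mm9 with Bowtie2 (version not given), per the submitters' processing notes. Filter columns in the file headers name mapping quality and duplicates, with thresholds not given in the sources used here. Here, lines were collapsed to distinct junctions and counted; 1 malformed line was skipped. Genes came from GENCODE on mm9. Library shares were tested by exact permutation, two-sided, and windows by limma 3.58.1 (voom, lmFit, eBayes, prior count 0.5, windows with at least 10 junctions) in R 4.3.3, tested on simulated data, where all windows changed 8-fold were recovered in all 4 comparisons. The simulated counts had a fixed spread and no run effect, so that recovery is no measure of power in the real libraries. Other tools were Python 3.11.15, scipy 1.17.1 and biopython 1.88. Libraries were compared by identical joints (inserts of at least 10 bases) and called linked above 25% shared, a threshold chosen after the data were seen. Minus-strand and CAC shares needed 5 members per library, which untreated lines lacked. Named sites are the 3 with most distinct junctions per group, in at least 2 libraries, with ties going to the site nearest the VH end. Named genes are the first 5 and the 10 with most members. The members and lists were chosen with earlier results of these data known. A chromosome region has no label to check against markers. Lists that pool libraries, WT BM replicate 4 and samples with other baits were not used here.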

Additional observations from a re-analysis of the deposited data

Results flagged for a closer look

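In INV BM, 12 measures were checked for a library far from the other 3, and 1 stood out. The density beyond the VH end, relative to other chromosomes, was 2074 times in INV BM replicate 1, against 116 to 170 in the others. The gap to its nearest neighbour was 0.972 of the range, above Dixon's 95% critical value, which chance passes in about 1 of 20 groups. That library had 100 distinct junctions on other chromosomes, and 752 to 1407 were in the others. Its share of all distinct junctions, 1808 per 100000, was not beyond the critical value.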

How the results depend on the processing

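Of 180 alternatives to the 12 permutation tests, 179 kept the direction, and none could pass 0.05 (smallest p 0.0571). The sizes moved with the counting unit, as given beside the shares: INV BM minus WT BM, 1418 per 100000, was 195 with all lines counted and 6921 by prey position and strand. In the same order the treated Wapl-degron difference was 84.2, 9.33 and 261, the single-Igh difference 116, 21.9 and 174, and the single-Igh INV difference 294.2, 29.8 and 882. The CAC share of INV BM against WT BM reversed, to 12.9 percentage points, with each position counted once, where WT BM replicate 3 dropped out for too few positions. The number of libraries sets the smallest p, and counting linked libraries as 1 raises it. Single-Igh INV replicate 1 held 1977 distinct junctions, and the run 1 libraries 132 and 100 on other chromosomes.

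For INV BM and WT BM, same-numbered libraries correlated at r = 0.192, 0.115 and 0.068, and replicate 1 of both is from run 1. Not every pair passed 0.1, and r was -0.113 to 0.0987 elsewhere, so the numbers are not taken as pairs. With the replicate number as a block, window calls beyond the VH end were 8 for INV BM against WT BM, and 1 in each treated uninverted line. The log2 fold change of the stretch as 1 window was then 5.33 (limma adjusted p = 0.00847), 2.88 (0.00929) and, for single-Igh INV, 1.45 (0.251). Shares called over the genome with this block are not given here.

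For INV BM against WT BM, window calls were 5, and 1 with limma trend, 8 with the run as a term, 3 with windows of 1 Mb, 8 with at least 1 junction per window, and 4 to 8 with each library left out. The whole stretch had 5.28 with the run as a term (limma adjusted p = 6.8e-08), and 2.43 to 7.03 with libraries left out. For the single-Igh line calls fell from 1 to 0 with all distinct junctions as library size, limma trend, the run as a term, 1 Mb windows, at least 1 junction, 1 library per linked set, and each library left out (0 to 0). With all lines counted the whole stretch was called there (2.42, limma adjusted p = 0.0233), with 1.68 to 2.40 on leaving libraries out. For single-Igh INV, window calls were 7 with all lines counted and 2 with 1 Mb windows. Its whole stretch lost its call with limma trend (1.23, limma adjusted p = 0.693) the run as a term (1.42, 0.824) and 1 library per linked set (1.22, 0.116), and ran from 1.11 to 1.55 with libraries left out. The causes were not tested, and the shares called over the genome under these settings are not given here. Calls of windows that passed the 10-junction minimum only through the group where they are high are descriptions, as said above.

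Removing the Ighv1-86 site, that site with the C-run site, or the most used INV BM site, all chosen after seeing the data, turned no direction. Minus-strand and CAC shares of treated against untreated lines gave no value.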
